A study of Mus musculus with 2 samples.

Results

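The potassium channel genes described here were the 94 protein-coding rows, of 47069 genes in the deposited table, whose GENCODE symbol on the mouse assembly GRCm38 begins with Kcn. They comprised 40 voltage-gated subunits, 15 inward rectifiers, 14 two-pore subunits, 5 calcium-activated subunits (Kcnma1 and Kcnn1 to Kcnn4), 3 relatives of Kcnma1 gated by sodium or pH (Kcnt1, Kcnt2 and Kcnu1) and 17 auxiliary subunits that form no pore of their own. Their poly(A) RNA was measured in 2 samples of primary pituitary cells from female C57BL/6 mice, randomly cycling and 10 to 12 weeks old. Both samples were acute enzymatic dissociates (collagenase, pancreatine), stored immediately. The authors describe a sample as 500000 to 700000 cells from 5 glands, in their account of plated cells for single-cell assays. Whether the 2 samples here came from separate pools or from 1 dissociation that was divided is not given in the sources used here. One sample was stored in RNA-Best, a buffer made to stabilise RNA inside intact single cells, and the other in RNAlater, a commercial RNA stabiliser used as the reference. Each stabiliser had 1 library, of 53915047 counts for RNA-Best and 44917492 for RNAlater, a depth ratio of 1.20. No difference between them therefore had a replicate check and no test was run. The intervals given are 95% intervals of the counts and cover counting error only. Copies made by PCR are not independent molecules, so the intervals may be too narrow even for that.

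Potassium channels let potassium leave the cell along its gradient, which holds the membrane at negative voltages and ends action potentials. Pituitary endocrine cells fire action potentials spontaneously, and the calcium that enters during each one drives hormone secretion, so the mix of potassium channels sets how long and how often these cells fire. Dopamine, somatostatin and other inhibitors of secretion open G protein-gated inward rectifiers, thyrotropin-releasing hormone closes channels of the Kcnh2 kind, and the large-conductance calcium-activated channel built by Kcnma1 shapes the plateau of the spike.

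All pore subunits share a selectivity filter, a short loop that lines the narrowest part of the pore. Its signature was searched in the longest coding sequence of each member, translated from GENCODE M21, as 5 codons for threonine or serine, any residue, glycine, then tyrosine, phenylalanine or leucine, then glycine. All 14 two-pore genes had 2 matches, 61 of the 63 other pore genes had 1, and the 17 auxiliary genes had 0. The other two, Kcna6 and Kcnh2, had 2 each. A match is a description of the letters and not proof of a pore. The coding strand around it is shown for pore genes of each family that are described below, so that the single loop of most families can be set beside the pair of loops of the two-pore genes, 5′ to 3′, with 5 codons on each side in lower case and the 5 filter codons in capitals.
Kcnh2, codons 626 to 630: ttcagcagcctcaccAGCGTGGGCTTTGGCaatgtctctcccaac
Kcnj3, codons 143 to 147: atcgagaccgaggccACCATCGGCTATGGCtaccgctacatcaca
Kcnma1, codons 352 to 356: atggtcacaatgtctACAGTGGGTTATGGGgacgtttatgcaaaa
Kcnn3, codons 508 to 512: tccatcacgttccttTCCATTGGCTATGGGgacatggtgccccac
Kcnt1, codons 295 to 299: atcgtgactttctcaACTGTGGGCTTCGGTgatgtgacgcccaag
Kcnk1, first loop, codons 117 to 121: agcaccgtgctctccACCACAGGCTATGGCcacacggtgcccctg
Kcnk1, second loop, codons 225 to 229: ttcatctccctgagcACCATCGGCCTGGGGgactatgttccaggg
Kcnk2, first loop, codons 157 to 161: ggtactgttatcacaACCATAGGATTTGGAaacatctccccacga
Kcnk2, second loop, codons 266 to 270: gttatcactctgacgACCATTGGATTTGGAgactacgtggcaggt
The fourth of the capital codons reads tyrosine (TAT) in Kcnj3, Kcnma1, Kcnn3 and the first loop of Kcnk1. It reads phenylalanine (TTT or TTC) in Kcnh2, Kcnt1 and both loops of Kcnk2, and leucine (CTG) in the second loop of Kcnk1.

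The dissociated cells carried pituitary markers. All 7 hormone genes examined (Prl, Gh, Pomc, Cga, Lhb, Fshb and Tshb) were detected, at a summed level of 307051 CPM in RNA-Best and 239085 in RNAlater. CPM are a gene's counts scaled to a library total of 1000000. The potassium channel genes together took a far smaller share, 0.0699% of the RNA-Best counts (0.0692 to 0.0706) and 0.0901% of the RNAlater counts (0.0892 to 0.0910). Their summed level was 699 CPM in RNA-Best and 901 in RNAlater (log2 ratio -0.37, -0.39 to -0.35). Of the 94 genes, 92 had a count in at least 1 library, 79 reached 10 reads in RNA-Best, 81 in RNAlater and 76 in both. Kcnk16 and Kcnv1 had no count in either library, which allows each of these genes up to 0.0556 CPM in RNA-Best and up to 0.0668 in RNAlater. Kcna10 and Kcnj16 had no count in RNA-Best only and Kcng3 had none in RNAlater only, each with 5 counts or fewer in the other library. The order of levels was much the same in both libraries, with a Spearman correlation of CPM of 0.977 over the 94 genes. This is a correlation across genes, which are not replicates, and most points differ in level far more than the libraries differ.

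**Figure D1:**
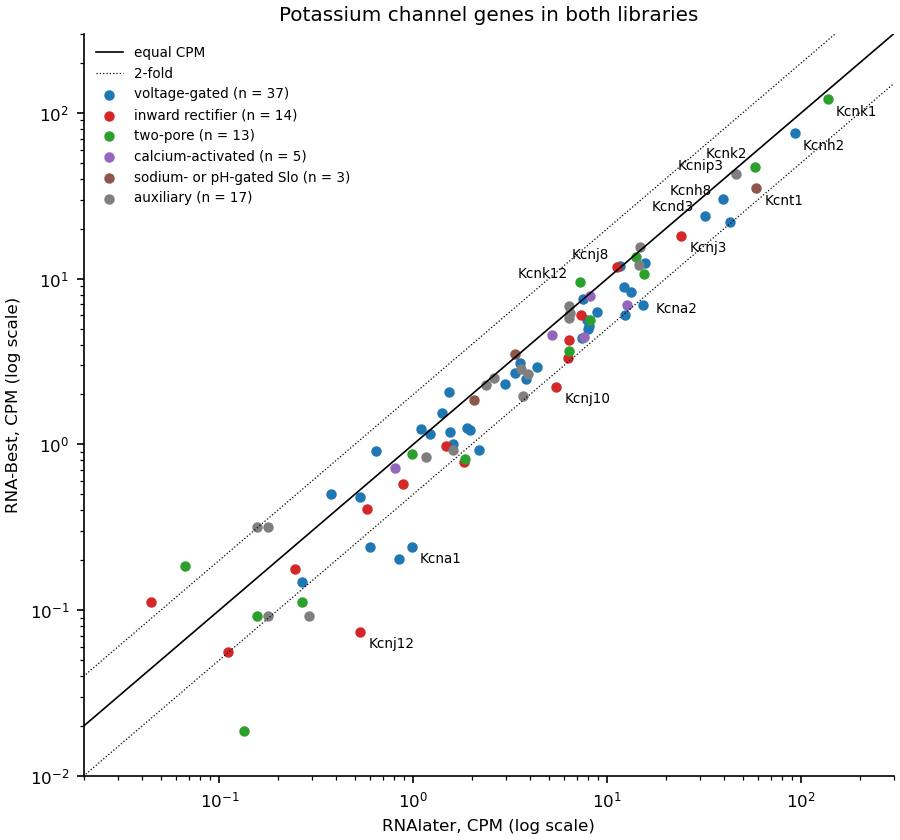
Each point is 1 potassium channel gene with a count in both libraries, by its CPM in RNAlater (horizontal) and RNA-Best (vertical), both on log scales, coloured by family. The solid line marks equal CPM and the dotted lines a 2-fold difference without a pseudocount. Most points lie a little under the solid line, Kcnk1 at 121 and 137 CPM is the highest, and Kcnk12 lies above the line.

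Levels of different genes were compared as CPM per kb of the longest annotated transcript. Kcnk1, which encodes a two-pore subunit, stood first in both libraries with 54.1 CPM per kb in RNA-Best and 61.2 in RNAlater. Kcnh2, the ether-a-go-go related voltage-gated channel, followed with 17.9 and 21.9. Next came Kcnip3, a calcium-binding partner of Kcnd channels also known as DREAM, with 15.6 and 16.9, and Kcnk2, a two-pore channel opened by stretch and lipids, with 13.3 and 16.3. The ranges of Kcnk1 and Kcnh2 over both libraries overlapped no other member, while those of Kcnip3 and Kcnk2 overlapped each other, so their order was not resolved. Kcnh8 came next in both libraries at 7.07 and 9.25 CPM per kb, a range that overlapped that of Kcnt1.

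Below these, Kcnt1 had 5.27 and 8.85 CPM per kb and Kcnmb2 had 5.33 and 5.03, with ranges that overlapped. Kcnj8 had 4.61 and 4.42, Kcnk12 had 4.85 and 3.68, Kcna5 had 4.14 and 4.06 and Kcnj3 had 3.48 and 4.60. Each of these last genes overlapped in range with at least 1 of the others, so their order was not resolved either, and 8 of the 10 highest genes were shared by both libraries. With the median annotated transcript in place of the longest, 7 of the 10 highest by mean level were the same, and Kcnh2 rather than Kcnk1 came first. Expression was uneven: the single most abundant member held 17.3% of the members' CPM in RNA-Best and 15.2% in RNAlater, and the 10 most abundant held 61.7% and 60.7%.

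**Figure D2:**
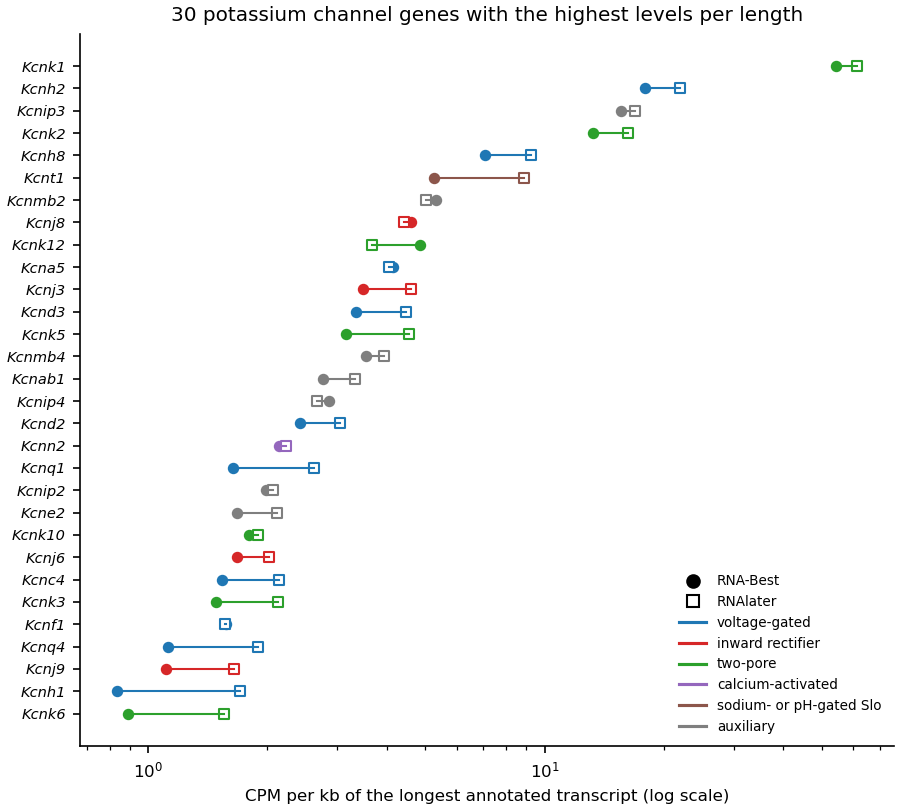
CPM per kb of the longest annotated transcript (log scale) for 30 of the potassium channel genes with the highest means (some genes are not reported here), in RNA-Best (filled circles) and RNAlater (open squares), coloured by family. Kcnk1 stands apart at 54.1 and 61.2, and the order from Kcnt1 downward is not resolved where the lines overlap.

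By family, voltage-gated genes held the largest share of the members' counts, 38.3% in RNA-Best and 41.3% in RNAlater. Two-pore genes held 30.5% and 27.7%, auxiliary genes 14.8% and 12.7%, and inward rectifiers 7.01% and 7.38%. The relatives of Kcnma1 held 5.77% and 7.12%, and the calcium-activated genes 3.51% and 3.81%. Per kb the order of the leading families was the reverse, with 40.4% and 38.0% for two-pore genes and 28.1% and 31.1% for voltage-gated genes. This order rested on the longest transcript as the length. With the median annotated transcript voltage-gated genes led again, at 44.5% and 47.3%, and two-pore genes held 30.4% and 28.3%. The two-pore share rested largely on Kcnk1.

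**Figure D3:**
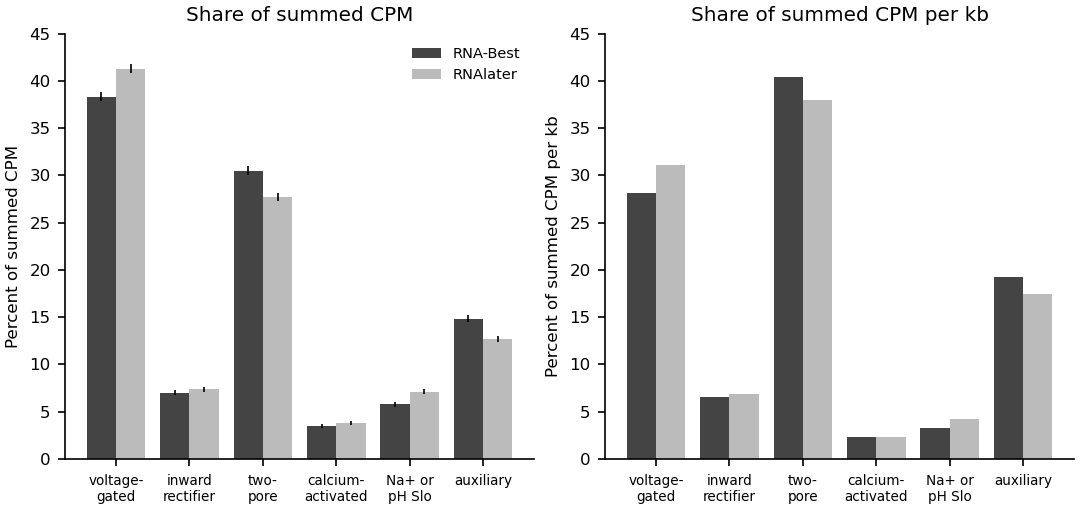
Share of the potassium channel genes' summed CPM (left, with 95% binomial intervals covering counting error only) and of their summed CPM per kb (right, no interval) held by each family, for RNA-Best (dark bars) and RNAlater (light bars). Voltage-gated genes lead on the left, at 38.3% and 41.3%, and two-pore genes on the right, at 40.4% and 38.0%, where lengths are those of the longest transcript. With the median transcript length voltage-gated genes lead there too, at 44.5% and 47.3%.

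The comparison of the libraries asked whether channel transcripts were recovered from RNA-Best as from the reference stabiliser. Log2 ratios of RNA-Best over RNAlater used CPM with 0.5 CPM added, which understates differences of weakly expressed genes. A minimum average of 1 CPM over the libraries was required, and 65 of the 94 members met it. Lower CPM in RNA-Best was found for 55 of the 65, against 67% of the 16504 genes compared. With TMM factors 45 members were lower and 20 higher (51.4% of all genes lower), and with DESeq2 size factors 43 were lower and 22 higher (50.4% of all genes lower). By family, these scalings left 24 and 23 of 30 voltage-gated, 7 and 7 of 8 inward rectifier, 6 and 5 of 8 two-pore, 2 and 2 of 4 calcium-activated and 5 and 5 of 12 auxiliary members lower. The family counts given further on are by CPM. The counting interval lay wholly below 0 for 43 members (51.2% of all genes) and wholly above 0 for 1, Kcnk12 (20.2% of all genes), and it spanned 0 for 21. The median log2 ratio of the 65 was -0.39, against -0.18 for all genes, a difference of -0.22. Against the 13815 protein-coding genes alone, whose median was -0.22 and of which 72.3% were lower, the difference was -0.17, and with the all-gene trend on transcript length removed it was 0.0036 relative to all genes. Relative to the median of all genes, 44 members were lower and 21 higher.

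Large differences were few. At least 2-fold lower values in RNA-Best were found for 2 members, Kcna2 and Kcnj10 (4.99% of all genes), and at least 2-fold higher values for 0 (0.273% of all genes). The log2 ratios of the members ranged from -1.13 to 0.38. The number that passed 2-fold depended on scaling and pseudocount: it was 0 with TMM factors or DESeq2 size factors and 6 with 0.1 CPM added. The libraries also differed in composition, and these scalings moved the median of all genes to -0.01 (TMM) and -0.0036 (DESeq2), so values near 0 have no settled direction.

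**Figure D4:**
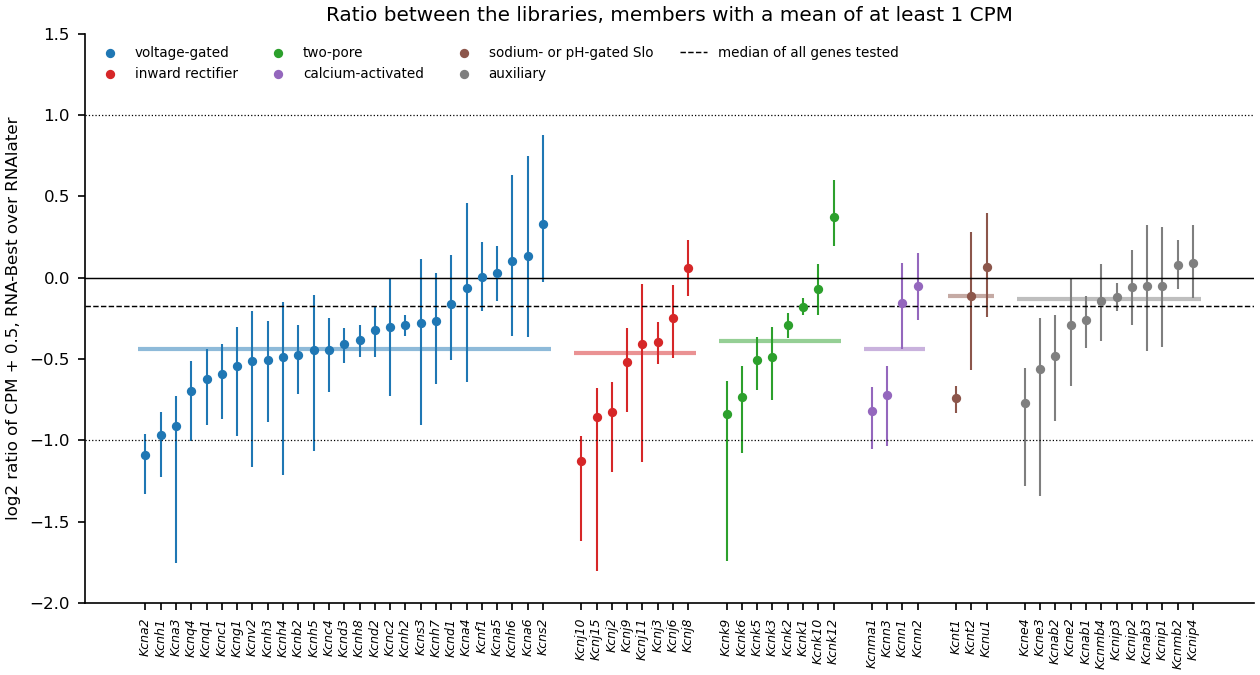
Log2 ratio of RNA-Best over RNAlater for all but 3 of the 65 potassium channel genes averaging 1 CPM or more, sorted within families. Points have 0.5 CPM added, vertical lines are 95% counting intervals without it, short horizontal bars are medians of all 65 by family, the dashed line is the median of all genes (-0.18) and dotted lines mark 2-fold. Most points lie below 0, Kcna2 and Kcnj10 lie below the lower dotted line, and Kcnk12 alone has an interval wholly above 0.

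Voltage-gated subunits form channels that open when the membrane depolarises and repolarise the spike. Of the 40 genes 30 met the minimum, 25 of these were lower in RNA-Best, and their median log2 ratio was -0.44. Their summed level was 268 CPM in RNA-Best and 372 in RNAlater (log2 ratio -0.47, -0.50 to -0.44). Kcnh2, at chr5:24319589-24351604, was the most abundant, with 75.5 CPM in RNA-Best and 92.5 in RNAlater (log2 ratio -0.29, -0.36 to -0.23). All 8 Kcnh genes met the minimum, and together they had 121 and 157 CPM. Kcnh8, an ether-a-go-go-like channel, had 30.3 and 39.7 CPM (-0.38, -0.49 to -0.29). Kcnh1 had 6.07 and 12.3 CPM, the second lowest ratio of the family at -0.97 (-1.23 to -0.82).

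The rapidly inactivating A-type channels are built by the Kcnd genes. Kcnd3 had 24.0 CPM in RNA-Best and 32.0 in RNAlater (-0.41, -0.53 to -0.31), and Kcnd2 had 12.5 and 15.7 (-0.32, -0.49 to -0.18). Per kb, the Kcnd3 level was 1.38 times the Kcnd2 level in RNA-Best and 1.47 times in RNAlater, or 3.71 and 3.94 times with the median transcript length.

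Kcna2, a low-threshold delayed rectifier of axons, had 6.93 CPM in RNA-Best and 15.3 in RNAlater (-1.09, -1.33 to -0.96). Kcna5, of the same subfamily, differed in the other direction within counting error, with 11.9 and 11.6 CPM (0.03, -0.14 to 0.20). The longest transcript of Kcna2 has 11582 bases and that of Kcna5 has 2862. Kcna3, with a short transcript of 1902 bases, had 0.927 and 2.18 CPM (-0.91, -1.76 to -0.73). The modifying subunits Kcnf, Kcng, Kcns and Kcnv, which are silent on their own, summed to 16.2 and 18.2 CPM over 10 genes. Among them Kcns2 had the highest ratio of the voltage-gated genes, with 2.06 and 1.54 CPM (0.33, -0.02 to 0.88), an interval that includes 0.

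Inward rectifiers pass current more easily into than out of the cell and hold the resting potential. Of 15 genes 8 met the minimum, 7 of them were lower in RNA-Best, and their median log2 ratio was -0.46. The summed level was 49.0 CPM in RNA-Best and 66.4 in RNAlater (-0.44, -0.52 to -0.36). The G protein-gated subunits were led by Kcnj3 (chr2:55435970-55598145), with 18.2 and 24.0 CPM (-0.39, -0.53 to -0.28). Kcnj6 had 6.07 and 7.30 CPM (-0.25, -0.49 to -0.04) and Kcnj9 had 4.28 and 6.34 (-0.52, -0.82 to -0.31). The remaining G protein-gated subunit, Kcnj5, had 3 and 5 counts. Per kb, the Kcnj3 level was 2.08 times the Kcnj6 level in RNA-Best and 2.28 times in RNAlater.

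The ATP-sensitive channels pair a Kcnj pore with a sulfonylurea receptor. Kcnj8, the pore of vascular and mural cells, had 11.7 CPM in RNA-Best and 11.3 in RNAlater (0.06, -0.11 to 0.23), the highest ratio of its family. Kcnj11, the pore of endocrine cells such as the pancreatic beta cell, had 0.983 and 1.47 CPM (-0.41, -1.13 to -0.04). Per kb, the Kcnj8 level was 14.7 times the Kcnj11 level in RNA-Best and 9.45 times in RNAlater, but only 2.45 and 1.57 times with the median transcript length. Abcc9, the receptor gene 16.2 kb from Kcnj8 and its usual partner, had 2.60 and 9.26 CPM (-1.66, -2.12 to -1.55). The pore and receptor of this channel thus differed between the libraries by unlike amounts, with non-overlapping intervals. The longest transcript of Kcnj8 has 2548 bases and that of Abcc9 has 7499. Abcc8, 3.76 kb from its partner Kcnj11, had 4.54 and 8.24 CPM (-0.79, -1.10 to -0.62).

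Kcnj10, a glial channel that clears extracellular potassium, had 2.23 CPM in RNA-Best and 5.46 in RNAlater (-1.13, -1.62 to -0.97), the lowest ratio of all 65 members. Kcnj2, a strong rectifier of muscle, vessels and neurons, had 3.34 and 6.30 CPM (-0.83, -1.19 to -0.64). Both genes keep their coding sequence in a single exon, as did 20 of the 94 members. The counts of Kcnj10 and Kcna2, the only members 2-fold lower, were not whole in at least 1 library, so some of their reads were counted as fractions. Exons of neither gene overlap another annotated gene, and the counting options that made the fractions are not given.

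Two-pore subunits carry the background leak of potassium that sets the resting potential, and work in pairs. Of 14 genes 8 met the minimum, 7 of them were lower in RNA-Best, and their median log2 ratio was -0.39. Their summed level was 213 CPM in RNA-Best and 250 in RNAlater (-0.23, -0.26 to -0.19). Kcnk1 (chr8:125995170-126030685), a weakly conducting subunit held largely in endosomes, had 121 and 137 CPM (-0.18, -0.23 to -0.13), which is at the median of all genes. Kcnk2 (chr1:189207930-189402273) had 47.4 and 58.1 CPM (-0.29, -0.37 to -0.21), and its close relative Kcnk10 had 13.4 and 14.1 (-0.07, -0.23 to 0.09). Exons of Kcnk1 and Kcnk2 overlap antisense genes by 179 and 604 bases.

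Kcnk5, an alkali-activated leak channel, had 10.7 CPM in RNA-Best and 15.4 in RNAlater (-0.51, -0.69 to -0.37), and the acid-sensitive Kcnk3 had 5.64 and 8.13 (-0.49, -0.75 to -0.30). Kcnk9, the partner of Kcnk3, was sparse at 0.816 and 1.85 CPM and had the lowest ratio of the family (-0.84, -1.74 to -0.64). Kcnk12, a subunit that gives little or no current on its own, went the other way, with 9.57 CPM in RNA-Best and 7.26 in RNAlater (0.38, 0.20 to 0.60). Its transcript has 1972 bases, and its ratio stood above that of the typical gene by 0.39 with the trend on length removed.

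The calcium-activated channels open as calcium enters during the spike and so limit its length and the firing rate. All 5 genes were detected, 4 met the minimum, and these 4 were lower in RNA-Best, with a median log2 ratio of -0.44. The summed level was 24.5 CPM in RNA-Best and 34.4 in RNAlater (-0.49, -0.59 to -0.38). Kcnma1 (chr14:23289431-24014491), the large-conductance channel, had 6.92 and 12.6 CPM (-0.82, -1.06 to -0.67). Among the small-conductance subunits, Kcnn3 had 4.41 and 7.61 CPM (-0.72, -1.03 to -0.54). The other two that met the minimum differed within counting error, with 7.88 and 8.19 CPM for Kcnn2 (-0.05, -0.26 to 0.15) and 4.58 and 5.17 for Kcnn1 (-0.16, -0.44 to 0.09). Kcnma1 and Kcnn3 have the longest transcripts of the family, 12094 and 8314 bases, against 3682 for Kcnn2 and 4047 for Kcnn1. The intermediate-conductance Kcnn4 had 39 and 36 counts. With its 12094 bases Kcnma1 had a low level per length, 0.572 and 1.04 CPM per kb, which placed it in rank 47 in RNA-Best and 41 in RNAlater, or 28 by mean level with the median transcript length.

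Kcnt1, a sodium-activated relative of Kcnma1, had 35.0 CPM in RNA-Best and 58.8 in RNAlater (-0.74, -0.83 to -0.66). Per kb it ranked 7 in RNA-Best and 6 in RNAlater. Its paralog Kcnt2 had 1.85 and 2.05 CPM (-0.11, -0.57 to 0.28). Kcnu1, known as a pH-gated channel of sperm, had 190 and 150 counts, 3.52 and 3.34 CPM (0.07, -0.24 to 0.40).

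Auxiliary subunits bind the pore and set its gating or its transport to the surface. Of 17 genes 12 met the minimum, 10 of them were lower in RNA-Best, and the median log2 ratio of -0.13 was close to that of all genes. The summed level was 104 CPM in RNA-Best and 114 in RNAlater (-0.14, -0.20 to -0.09). The direction of this sum was not settled, since it was 0.033 with TMM factors and 0.044 with DESeq2 size factors. Kcnip3 had 42.5 and 46.2 CPM (-0.12, -0.20 to -0.03), and the 4 Kcnip genes summed to 58.1 and 61.6. The partners of Kcnma1 that were most abundant were Kcnmb2, which inactivates the channel, with 15.6 and 14.7 CPM (0.08, -0.07 to 0.23), and Kcnmb4, the brain form, with 5.75 and 6.39 (-0.14, -0.39 to 0.09). Kcnmb1, the smooth muscle form, had 5 and 13 counts. Per kb, the Kcnma1 level was 0.107 of the Kcnmb2 level in RNA-Best and 0.207 in RNAlater, or 0.321 and 0.619 with the median transcript length. Kcnip4 had 6.84 and 6.39 CPM (0.09, -0.13 to 0.33), and Kcnab1, a beta subunit of Kcna channels, had 12.1 and 14.6 (-0.26, -0.43 to -0.11). Kcne4, a single-span subunit, had the lowest ratio of the group, with 1.95 and 3.67 CPM (-0.77, -1.28 to -0.55). By CPM all 3 Kcne genes above the minimum had intervals wholly below 0 (51.2% of all genes). That of Kcne2 was so only narrowly, at -0.67 to -0.01.

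Some members under the minimum differed by more when nothing was added to the CPM. In RNA-Best 13 reads of Kcna1 were counted, against 44 in RNAlater (0.241 and 0.980 CPM), and its log2 ratio with nothing added was -2.02 (-3.04 to -1.10). Kcns1 had 11 and 38 counts (-2.05, -3.17 to -1.06) and Kcnj12 had 4 and 24 (-2.85, -4.84 to -1.31). Others went the other way, with intervals that include 0. Kcnk4 had 10 and 3 counts (1.47, -0.48 to 3.97) and Kcnmb3 had 17 and 7 (1.02, -0.33 to 2.53). These genes were picked from the 29 members under the minimum after their values were seen. No untested member exceeded a mean of 0.996 CPM.

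Proteins that work with these channels were described from a separate list of 18 genes, of which 13 met the minimum. Of these 12 were lower in RNA-Best by CPM (67% of all genes), with a median log2 ratio of -0.31 against -0.18 for all genes. At least 2-fold lower were 2, Abcc9 and Hcn4 (4.99% of all genes). The 13 had a median transcript length of 4720 bases, against 3086 for all genes compared. Relative to all genes their median log2 ratio was -0.13, and -0.18 with the length trend removed. The pacemaker channel gene Hcn4 had 2.28 CPM in RNA-Best and 5.63 in RNAlater (-1.14, -1.63 to -0.99), while Hcn2 had 9.61 and 10.9 (-0.17, -0.36 to 0.00). Drd2, the dopamine receptor that opens the Kcnj3 channel in lactotrophs, had 18.6 and 20.7 CPM (-0.15, -0.29 to -0.03). Its G protein subunits had 260 and 305 CPM for Gnai2 (-0.23, -0.26 to -0.20) and 71.2 and 115 for Gnao1 (-0.69, -0.75 to -0.63). Gnai1 was the only 1 of the 13 with the higher value in RNA-Best, 13.7 against 12.7 CPM (0.11, -0.05 to 0.27). Dpp6, a surface partner of Kcnd channels, had 17.0 and 26.4 CPM (-0.62, -0.76 to -0.50). Amigo1, a cell-surface partner of voltage-gated channels, had 26.3 and 32.7 (-0.31, -0.42 to -0.21).

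The ratios went with transcript length. The median length of the 65 members was 4084 bases, against 3086 for all genes compared, 4919 for voltage-gated, 6181 for calcium-activated and 2695 for auxiliary members. Across the 65 members the Spearman correlation of log2 ratio and length was -0.36, and across 16453 genes with a length it was -0.64. Genes share each library and are not replicates, so these are descriptions. Within length classes the members' median lay above that of all genes from 4 kb upward and below it under 4 kb. The 22 members of 4 to 6 kb had a median of -0.31 against -0.40 for all genes of that length. The 7 members of 6 to 10 kb had -0.59 against -0.65, and the 6 members above 10 kb had -0.73 against -0.90. The 25 members of 2 to 4 kb had -0.28 against -0.15, and the 5 members under 2 kb had -0.29 against 0.15.

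With the all-gene trend on length removed, the members' median differed from that of all genes by 0.0036. That of voltage-gated members became 0.055, of calcium-activated members 0.10 and of auxiliary members 0.02. Two-pore members had a median of -0.09 and inward rectifiers one of -0.24, over 8 genes each. Kcns2, Kcnh7, Kcna6, Kcnk10 and Kcnb2 stood above genes of like length by 0.81, 0.66, 0.65, 0.59 and 0.50. Kcna3, Kcne3, Kcne4 and Kcnj10 stood below them, at -0.91, -0.66, -0.66 and -0.65. Length here was that of the longest transcript, 13321 bases for Kcnh7 against a median annotated transcript of 2961. Transcript GC content went with the ratio more weakly, with a Spearman correlation of -0.11 over the members and -0.07 over all genes.

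**Figure D5:**
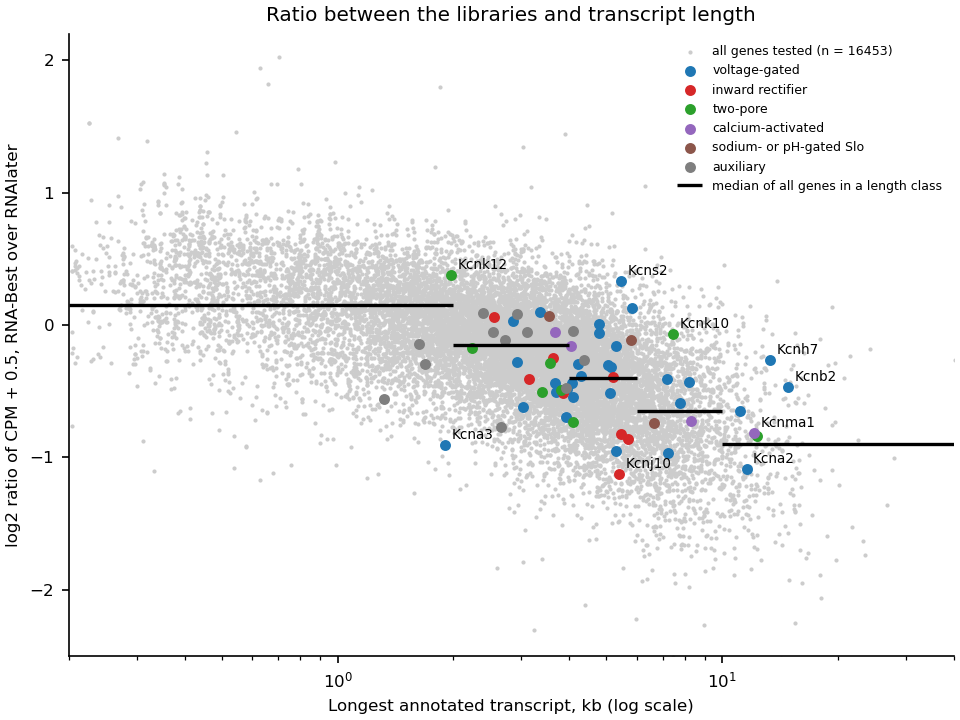
Log2 ratio of RNA-Best over RNAlater (0.5 CPM added) against the length of the longest annotated transcript in kb (log scale). Grey points are all 16453 genes with a length and an average of 1 CPM or more, coloured points are the 65 potassium channel genes, and black lines are the medians of all genes in 5 length classes. The medians run from 0.15 under 2 kb to -0.90 above 10 kb, and the channel genes lie on both sides of them.

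Markers of other cells differed between the libraries as well. In a bulk sample fewer cells of a type and less RNA per cell cannot be told apart. By CPM, 67% of all genes compared were lower in RNA-Best. Of 10 endothelial markers 9 were lower in RNA-Best, with a summed level of 456 CPM against 877 in RNAlater. All 10 pericyte and fibroblast markers were lower (594 against 807 CPM), as were all 8 posterior lobe markers (137 against 243) and all 9 stem and folliculostellate markers (342 against 539). Of the 7 neuron markers above the minimum 6 were lower (196 against 250), and of 10 macrophage markers 6 were (211 against 204). The 5 erythroid genes were all higher in RNA-Best (3200 against 1130), and the 7 hormone genes were higher as well. Median log2 ratios relative to all genes changed with the length trend removed. They went from -0.87 to -0.78 for endothelial, -0.70 to -0.50 for pericyte and fibroblast, and -0.55 to -0.21 for posterior lobe markers. Stem and folliculostellate markers went from -0.40 to -0.52, macrophage from -0.14 to 0.04 and neuron from -0.26 to 0.09. Erythroid genes went from 0.97 to 0.69 and hormone genes from 0.63 to 0.31. No marker was at 0 in both libraries. Their part in the ratios of Kcnj10, Kcnj8, Abcc9 and the other members was not tested.

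Members that lie side by side in the genome had similar ratios in some cases and not in others. Kcna3 and Kcna2 lie 63.1 kb apart and were both lower in RNA-Best, while Kcna10, 68.1 kb beyond Kcna2, had 0 and 3 counts. Kcna1 and Kcna6 lie 61.9 kb apart on chromosome 6, and Kcna6 had 1.24 CPM in RNA-Best against 1.09 in RNAlater (0.13, -0.37 to 0.75), where the Kcna1 interval lay below 0. Kcnj9 and Kcnj10 lie 11.9 kb apart, with ratios of -0.52 and -1.13. Exons of 28 members overlap another annotated gene. The strand setting of the counting is not given, so how reads from the overlap were assigned within each pair is unknown. The overlaps of named members include 1621 bases of Kcnj3 and 1016 bases of Kcnma1.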

How the data were processed

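The authors deposited 1 table of estimated counts per gene for both libraries. The submitters' processing notes name STAR 2.5.1b, featureCounts 1.5.0-p1 and mm10; the options and the strand setting are not given in the sources used here. Counts of 12 of the 94 members were not whole, so some reads were counted as fractions. Each library was prepared with the Illumina TruSeq LT mRNA kit from poly(A) RNA. Samples were grouped by the labelled stabiliser, with 1 library each, so no model of replicates and no p-value was possible.

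Identifiers were matched without version numbers to GENCODE M21 on GRCm38 (46574 of 47069), which gave symbols, positions, lengths and coding sequences. The annotated transcript can be longer than the one expressed. Counts were divided by the column total to CPM. Log2 ratios had 0.5 CPM added, over genes averaging 1 CPM or more. Counts were rounded for exact conditional binomial 95% intervals, which have no pseudocount. The length trend was fitted by LOWESS (span 0.2). No column of per-sample values was left unmapped. Tools were Python 3.11.15, numpy 2.4.6, pandas 2.3.3, scipy 1.17.1, statsmodels 0.14.6, and for scaling factors R 4.3.3 with edgeR 4.0.16 and DESeq2 1.42.0. The ratio step was tested on simulated data.

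Alternatives were TMM, DESeq2 or a total without the 2 most abundant genes, pseudocounts of 0.1 and 1 CPM, a minimum of 10 CPM or none, whole counts only, the length trend removed, equal depth, median transcript lengths, and Kcnt and Kcnu genes counted as calcium-activated. Named by rule were members averaging 10 CPM or more, the 3 highest per kb and the ends of the ratios in each family, members 2-fold different and the partner genes. Other members were named once their values were known. The members, families and lists were chosen with earlier results of these data known. Single values of some members, included in all counts and sums, are not reported here.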

Additional observations from a re-analysis of the deposited data

Results flagged for a closer look

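Antisense genes named after potassium channel genes were not among the members, and 4 of the 5 listed had counts above the 3 that a count of 0 allows in both libraries. Kcnq1ot1, the long antisense RNA transcribed from an intron of the imprinted Kcnq1 gene, had a count of 589.08 for RNA-Best and of 320.31 for RNAlater, or 10.9 and 7.13 CPM (log2 ratio 0.58, 0.42 to 0.82). Kcnq1 itself had 4.97 and 7.93 CPM (-0.62, -0.91 to -0.44), the opposite direction. Kcnmb4os2, which overlaps exons of Kcnmb4 by 693 bases, had 205 and 151 counts (0.16, -0.13 to 0.49). Kcnd3os had 74 and 39 counts (0.45, 0.08 to 1.26), against a ratio of -0.41 for Kcnd3, and Kcnab3os had 22 and 8 (0.42, -0.03 to 2.57). The strand setting of the counting is not given. Whether reads in the shared exons were kept apart from those of the channel gene is thus unknown. Whether these differences between the partners exceed the spread between replicates was not tested, since each stabiliser had 1 library.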

How the results depend on the processing

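No paired analysis was possible because each stabiliser had 1 library and the result comes from no test. The main limit is the missing replicate: counting intervals do not include variation between cells, pools of animals or library preparations. The members' median relative to all genes stayed below 0 under every scaling, pseudocount and filter tried and at equal depth (-0.24 to -0.10) and was 0.0036 with the length trend removed, where the voltage-gated median was 0.055 and the calcium-activated 0.10. The two-pore median was -0.041 at a mean of at least 10 CPM and -0.013 over whole counts only. Other medians that changed sign were the inward rectifier one, from -0.29 to 0.026 at a mean of at least 10 CPM (2 genes), and the auxiliary one, from 0.047 to -0.078 with no filter. Kcnt and Kcnu genes, counted as calcium-activated, brought that median to 0.02. Log2 ratios of summed CPM moved towards 0 with TMM factors (voltage-gated -0.30, inward rectifier -0.27, two-pore -0.053, calcium-activated -0.31, auxiliary 0.033), with DESeq2 size factors (-0.29, -0.26, -0.041, -0.30 and 0.044) and without the 2 most abundant genes (-0.34, -0.31, -0.10, -0.36 and -0.013), since each raises RNA-Best values by 1 factor. Over whole counts only, the voltage-gated sum was -0.40 and the inward rectifier sum -0.36. The number of members at least 2-fold lower, 2 in the main analysis, was 0 with TMM, 0 with DESeq2, 0 over whole counts only, 1 without the 2 most abundant genes, 1 at a mean of at least 10 CPM, 1 with the length trend removed, 4 at equal depth (1 draw) and 6 with 0.1 CPM added. None was 2-fold higher under any of these. Of 302 values of single named members under alternatives, 253 moved within their counting error and 49 by more, and 11 named members changed sign under some alternative, among them Kcnip3, Kcnk1, Kcnk10, Kcnmb4, Kcnn1, Kcnn2 and Kcnt2 under other scalings, and Kcnd3, Kcnj8, Kcnk10, Kcnn2, Kcnt2 and others not reported here with the length trend removed.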
